A study of Mus musculus with 12 samples.

Results

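Microglia digest what they engulf in lysosomes, and the proteins described here do the last step of that work or hold it back. They are 10 genes chosen by name from the 55487 genes in the count table: the cysteine cathepsins Ctsb, Ctsl, Ctss, Ctsh, Ctsc and Ctsz, the asparaginyl endopeptidase legumain (Lgmn), the aspartic protease Ctsd, and the cystatins Cst3 and Cst7. Each was found by a single Ensembl identifier of the GRCm38 annotation. All 10 were among the 16908 genes tested.

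The libraries are bulk RNA-seq of microglia, the resident macrophages of the brain, from the basal forebrain and striatum of mice at postnatal day 13. All animals were YARG reporter mice, in which yellow fluorescent protein (YFP) is made from the Arg1 locus, the gene of arginase-1. CX3CR1-positive, CD206-negative cells were sorted by YFP into ARG1+ and ARG1- microglia, and brains of the same sex were pooled for each library. There were 4 groups of 3 libraries each, ARG1- females, ARG1- males, ARG1+ females and ARG1+ males, so that each population had 6 libraries. The labels name no treatment. The labels number the libraries but do not tie an ARG1+ library to an ARG1- library of the same pool, so the populations were compared as unpaired.

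Library totals were 30954399 to 60625170 counts in ARG1- and 28356659 to 46569667 in ARG1+ microglia. The labels could not be checked through Arg1 itself, whose counts were 0 in the 6 ARG1- libraries and in 4 of the 6 ARG1+ libraries, the exceptions being ARG1+ female replicates 15 (52 counts) and 8 (2 counts). The groups are therefore those of the labels. Defining microglial transcripts were abundant in both populations, with a mean of 16185 CPM (counts per 1e6 counts of a library total normalized by TMM) for Csf1r in ARG1- and 16697 in ARG1+ libraries. Of 10 microglial marker genes, 7 were lower and 1 was higher in ARG1+ microglia by the test used below, P2ry12 (log2 fold change -0.55) and Tmem119 (-0.77) among those lower. Summed markers of oligodendrocytes ran from 84.6 to 179 CPM in ARG1- and from 57.1 to 119 CPM in ARG1+ libraries, and those of astrocytes from 179 to 224 and from 129.8 to 151 CPM. The median level was 2.11 CPM over 8 oligodendrocyte and 1.58 CPM over 8 astrocyte markers tested, so few genes carried these sums. Summed markers of neurons stayed at 2.32 to 13.1 CPM, of monocytes at 3.7 to 14.1 CPM and of neutrophils at 3.75 to 11.5 CPM over the 12 libraries. A list of 12 transcripts known for retained introns summed to 2117 to 3889.8 CPM in ARG1- and 4637 to 6389.9 CPM in ARG1+ libraries. The part of these lists in the results below was not tested.

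Lysosomal proteases are made as inactive precursors, sorted to the endolysosome mainly through mannose 6-phosphate receptors, and activated there by acid and by one another. The cysteine cathepsins and Lgmn share a papain-like or caspase-like catalytic cysteine, whereas Ctsd uses a pair of aspartates. Cystatins are tight, reversible inhibitors: the secreted Cst3 (cystatin C) blocks most papain-like cathepsins, and Cst7 (cystatin F) is a leukocyte cystatin directed in particular at Ctsc. Cystatins do not inhibit Ctsd. In microglia, Cst3, Ctsd, Ctsb and Ctss are among the most abundant transcripts, and Cst7 is known for its low level in resting cells and its rise in disease-associated states.

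Many lysosomal genes carry the letters CACGTG near their start, the core that the MiT/TFE transcription factors bind, and many myeloid genes carry GAGGAAGT, a PU.1-type motif. Promoters running from 250 bases before to 50 bases after the RefSeq transcription start (GRCm38.p6) were available for 8 of the 10 genes, in 9 windows because Lgmn has more than one. Ctsb and Ctsh had no promoter window and were not searched. Both strands were searched. CACGTG, which lay in 7.15% of 32851 promoters, was found in Ctsd, Ctsl and Lgmn. GTCACGTG, which contains it, lay in 2.25% of promoters and was found in Ctsd and Lgmn. GAGGAAGT lay in 3.2% and was found in Ctss and Ctsc. The windows that hold a match are shown 5′ to 3′ on the gene's strand, to let the 3 proteases with CACGTG be set beside the 2 with the myeloid motif, with the matched letters in capitals. In Ctss and Ctsc the match is on the opposite strand and so reads as ACTTCCTC.
Ctsd, chr7:142388048-142388077, minus strand: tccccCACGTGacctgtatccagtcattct
Ctsd, chr7:142387908-142387937, minus strand: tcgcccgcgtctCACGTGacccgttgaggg
Lgmn, chr12:102439124-102439153, minus strand: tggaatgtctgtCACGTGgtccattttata
Ctsl, chr13:64370739-64370768, minus strand: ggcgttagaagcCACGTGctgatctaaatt
Ctss, chr3:95526773-95526802, plus strand: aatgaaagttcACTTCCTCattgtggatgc
Ctsc, chr7:88277923-88277952, plus strand: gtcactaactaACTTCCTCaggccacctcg
The matches begin 245 and 98 bases before the start in Ctsd, 49 bases before in Lgmn, 236 in Ctsl, 151 in Ctsc and 2 in Ctss. These are matches of letters, and no binding was measured.

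The main comparison asked how ARG1+ microglia differed from neighboring ARG1- microglia. The inhibitor Cst3 fell to about 0.486 of its ARG1- level, the proteases Ctss and Ctsh fell less, and Ctsb rose. Of the 10 genes, 1 was higher and 3 were lower at an adjusted p under 0.05 (edgeR's quasi-likelihood test with sex as a term, Benjamini-Hochberg adjustment over all genes tested), and 6 passed in neither direction. Over all genes tested 15.9% were called, 6.44% higher and 9.42% lower. The median log2 fold change of the 10 genes was -0.06, against 0.06 over all genes tested. Among the 149 genes whose mean level was at or above that of the least abundant of the 10 genes other than Cst7, 38.9% were called, 4.7% higher and 34.2% lower, with a median of -0.2. In these sorted pools, less RNA per cell and fewer cells of a kind cannot be told apart.

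**Figure D1:**
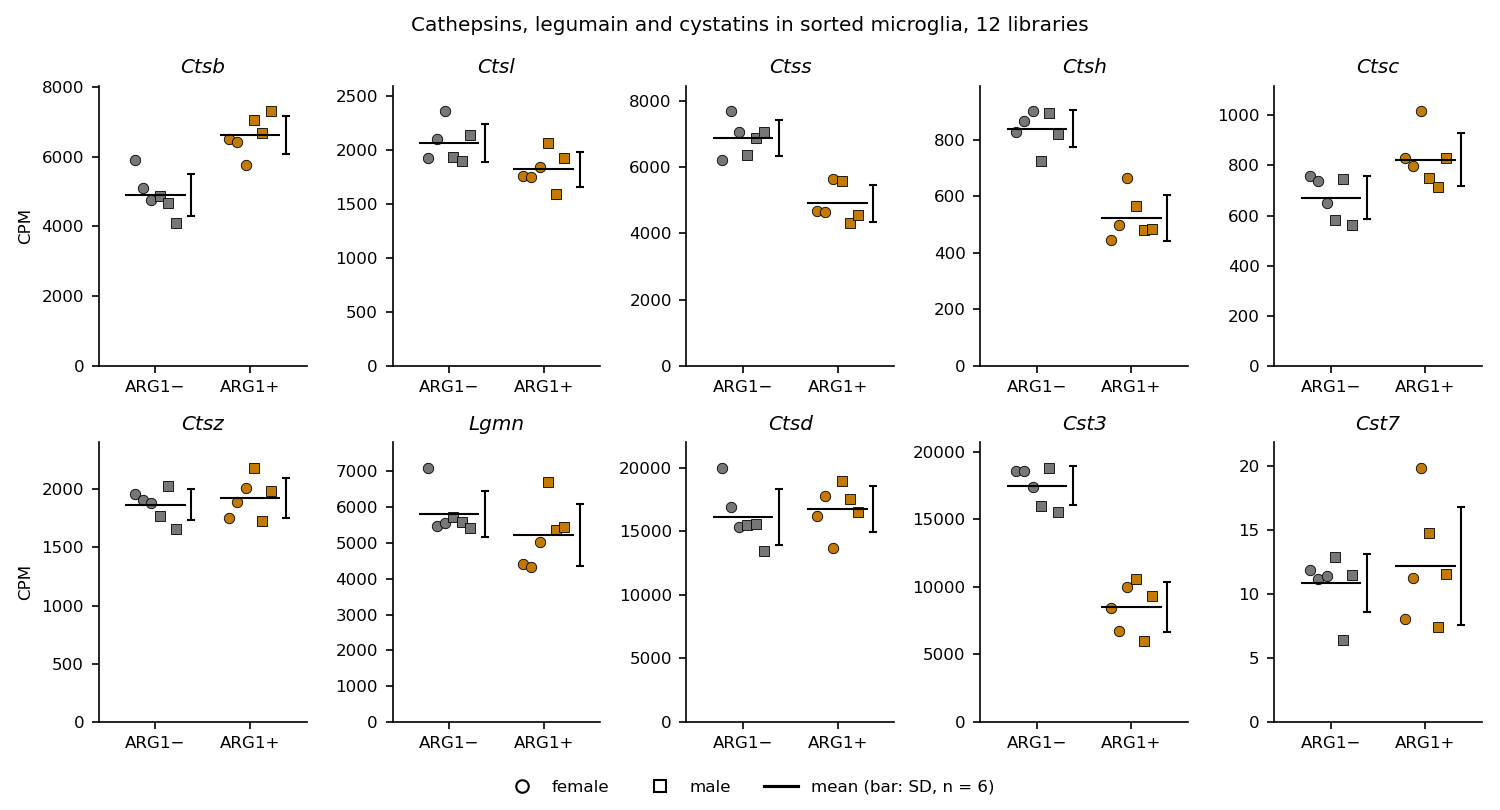
CPM of the 10 genes in each of the 12 libraries, by population on the x axis, with every y axis starting at 0; circles are female and squares male libraries, horizontal lines are means and bars the SD over 6 libraries. The ARG1+ libraries of Cst3 (5982 to 10589 CPM), Ctss and Ctsh all lie below the ARG1- libraries, whereas those of Ctsb lie mostly above.

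Among the endopeptidases, Ctsb (cathepsin B, which also trims dipeptides from carboxyl ends; chromosome 14, 63122462 to 63145923, plus strand) ranged from 4092 to 5898 CPM with a median of 4817 in ARG1- libraries and from 5768 to 7307 CPM with a median of 6596 in ARG1+ libraries. The populations overlapped only where ARG1- female replicate 1, at 5898 CPM, stood above ARG1+ female replicate 15, at 5768 CPM. The mean rose from 4900.1 ± 595 to 6631 ± 539 CPM (SD, n = 6), a log2 fold change of 0.44 ± 0.09 (SE, 95% confidence interval 0.25 to 0.63, adjusted p = 0.00601). In the exons of Ctsb, 774 bases also belong to Fdft1 on the opposite strand, a gene with a mean of 43 CPM in ARG1- and 47.9 CPM in ARG1+ libraries. Within the 8 libraries numbered 1 to 12 in the labels the difference was 0.4 with an adjusted p of 0.0519.

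Ctss (cathepsin S, an endopeptidase that stays active near neutral pH and cuts the invariant chain of class II molecules; chromosome 3, 95526786 to 95556403, plus strand) ranged from 6209 to 7693 CPM with a median of 6979.7 in ARG1- libraries and from 4317 to 5642 CPM with a median of 4665 in ARG1+ libraries. Every ARG1+ library lay below every ARG1- library, and both sexes spanned similar ranges. The log2 fold change was -0.49 ± 0.08 (95% confidence interval -0.67 to -0.31, adjusted p = 0.00247). Within the 8 libraries numbered 1 to 12 it was -0.47 with an adjusted p of 0.0538.

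Ctsl (cathepsin L, an endopeptidase of broad specificity; chromosome 13, 64359337 to 64370890, minus strand) ranged from 1897 to 2357 CPM with a median of 2019.5 in ARG1- libraries and from 1596 to 2066 CPM with a median of 1799 in ARG1+ libraries. The populations overlapped, and the log2 fold change of -0.18 ± 0.08 did not pass (adjusted p = 0.166), with a 95% confidence interval for the fold of 0.784 to 0.998. Of the exon bases of Ctsl, 26.8% are shared with the antisense gene Gm47123, which rose from a mean of 2.12 to 5.86 CPM (log2 fold change 1.46, adjusted p = 0.0235). The library kit does not mark strand, so reads of the shared bases cannot be told apart.

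The exopeptidases did not move together. Ctsh (cathepsin H, chiefly an aminopeptidase; chromosome 9, 90054152 to 90076089, plus strand) ranged from 725 to 901 CPM with a median of 847 in ARG1- libraries and from 445 to 665 CPM with a median of 492 in ARG1+ libraries. The 2 populations did not overlap. The log2 fold change of Ctsh was -0.68 ± 0.1 (95% confidence interval -0.9 to -0.46, adjusted p = 0.0013).

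Ctsc (cathepsin C, the dipeptidyl peptidase that activates granule serine proteases; chromosome 7, 88278085 to 88310888, plus strand) ranged from 561 to 756 CPM with a median of 693 in ARG1- libraries and from 714 to 1016 CPM with a median of 813 in ARG1+ libraries. The highest ARG1+ library of Ctsc, female replicate 15 at 1016 CPM, stood well above the others. The log2 fold change of 0.29 ± 0.09 (95% confidence interval 0.09 to 0.5) missed the threshold (adjusted p = 0.0541). It passed in 5 of 16 alternative settings. These were size factors of DESeq2 (adjusted p = 0.0347), upper-quartile factors (0.0443) and library totals alone (0.015). They also included at least 10 counts required in every library (0.0263) and the DESeq2 Wald test (0.00696). It did not pass with ARG1 status alone (0.0725) or with a term for libraries numbered 13 to 16 (0.0696). In the 8 libraries numbered 1 to 12 it was 0.15 (0.423). Of 12 fits without 1 library, 1 called it, the fit without ARG1- male replicate 6 (0.0251). Over all alternatives the adjusted p ran from 0.00696 to 1.

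Ctsz (cathepsin Z, a carboxypeptidase; chromosome 2, 174427493 to 174439039, minus strand) ranged from 1656 to 2025 CPM in ARG1- and from 1727 to 2184 CPM in ARG1+ libraries. The 95% confidence interval of its log2 fold change ran from -0.12 to 0.21 (adjusted p = 0.748).

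Lgmn (legumain, which cuts after asparagine and processes several cathepsins into their chains; chromosome 12, 102394084 to 102439813, minus strand) ranged from 5415 to 7104 CPM with a median of 5583 in ARG1- libraries and from 4339 to 6700.3 CPM with a median of 5191 in ARG1+ libraries. ARG1- female replicate 1 and ARG1+ male replicate 11 were the highest of their populations, and the populations overlapped. The log2 fold change was -0.17 ± 0.11 (95% confidence interval -0.4 to 0.06, adjusted p = 0.328). Without ARG1- female replicate 1 it was -0.08, and no fit that left out 1 library called it.

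The aspartic protease Ctsd (cathepsin D; chromosome 7, 142375911 to 142388038, minus strand) ranged from 13422 to 20016 CPM with a median of 15519.5 in ARG1- libraries and from 13674 to 18929 CPM with a median of 17049 in ARG1+ libraries. The populations covered nearly the same range, and the 95% confidence interval of the log2 fold change ran from -0.15 to 0.27 (adjusted p = 0.734). By mean CPM, without regard to length, Ctsd was the gene of rank 4 in ARG1- and of rank 1 in ARG1+ microglia. All 1023 exon bases of the readthrough gene Gm49369, on the same strand, belong to Ctsd (808 bases) or Ifitm10 (215 bases). Gm49369 nevertheless held 58.8 to 61% of the count of Ctsd in every library, 273333 to 530434 counts, whereas Ifitm10 had 722 to 2559. The shared exons were thus counted in both genes, and the level of Gm49369 is not reported as its own.

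The cystatins showed the largest and the least certain of the 10 differences. Cst3 (cystatin C; chromosome 2, 148871722 to 148875692, minus strand) ranged from 15546 to 18824 CPM with a median of 17994 in ARG1- libraries and from 5982 to 10589 CPM with a median of 8876 in ARG1+ libraries. The highest ARG1+ library of Cst3 lay far below the lowest ARG1- library, and the spread relative to the mean was wider in ARG1+ microglia. The mean fell from 17485 ± 1434 to 8498 ± 1832 CPM (SD, n = 6), a log2 fold change of -1.04 ± 0.13 (95% confidence interval -1.33 to -0.75, adjusted p = 0.000676), and on the same scale Cst3 moved from rank 2 to rank 6. It was the only one of the 10 genes whose change was called against a fold of 1.5.

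Cst7 (cystatin F; chromosome 2, 150570415 to 150578944, plus strand) ranged from 6.42 to 12.9 CPM with a median of 11.5 in ARG1- libraries and from 7.42 to 19.9 CPM with a median of 11.4 in ARG1+ libraries, on 192 to 700 counts per library. Its level per kilobase was the lowest of the 10 genes in both populations. The log2 fold change was 0.16 ± 0.27 with a 95% confidence interval of -0.42 to 0.74 (adjusted p = 0.743), so that the fold could lie anywhere from 0.746 to 1.67. Without ARG1+ female replicate 15 it was -0.02.

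Seen together, 3 of the 10 genes, Ctss, Ctsh and Cst3, had all 6 ARG1+ libraries below all 6 ARG1- libraries, and none had all above. Over all genes tested 10% did not overlap between the populations, 6.56% lower and 3.48% higher. No such share was taken among the 149 genes of like abundance described above, of which 34.2% were called lower. The calls of Ctsb, Ctss, Ctsh and Cst3 were kept in each of the 12 fits that left out 1 library, with log2 fold changes of 0.41 to 0.5, -0.53 to -0.43, -0.75 to -0.61 and -1.11 to -0.93.

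**Figure D2:**
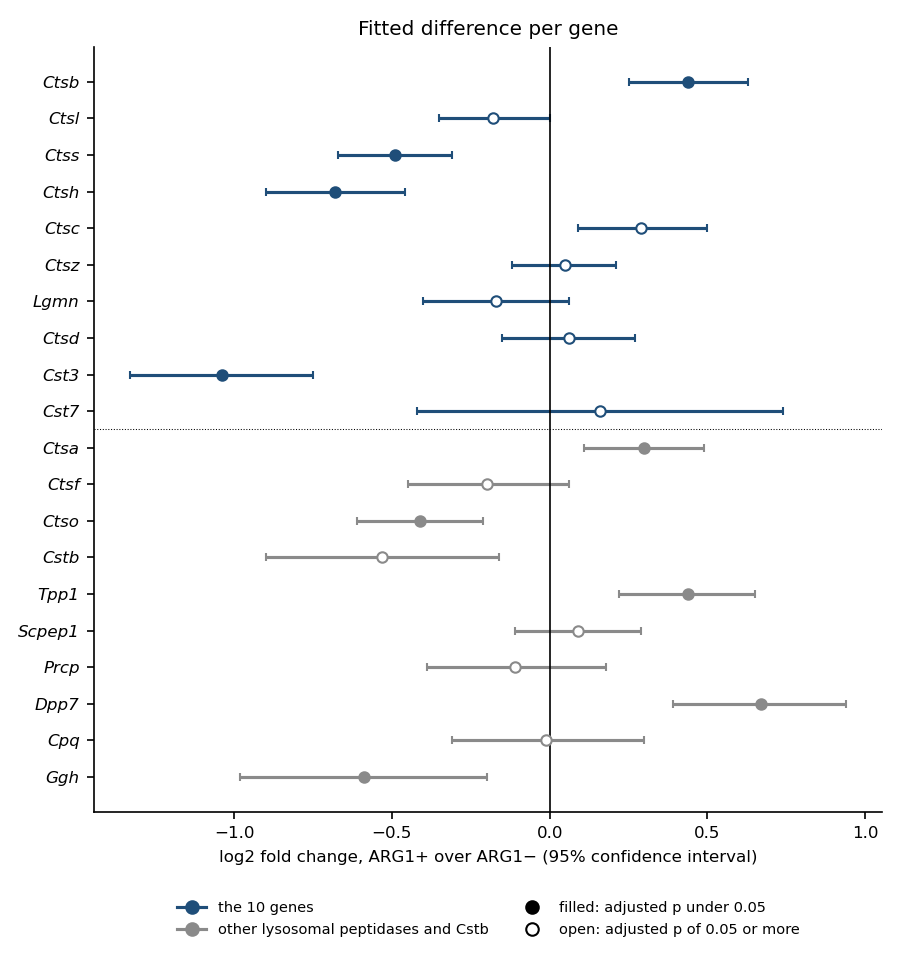
Fitted log2 fold change of ARG1+ over ARG1- microglia with its 95% confidence interval for the 10 genes (blue, above the dotted line) and for other lysosomal peptidases and Cstb (grey); filled points have an adjusted p under 0.05. Ctsb at 0.44 lies opposite to Ctss, Ctsh and Cst3 at -0.49, -0.68 and -1.04.

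Gene length moved with the difference between the populations. Among genes with a mean of at least 10 CPM, the median log2 fold change was -0.54 for the 264 genes with under 1 kb of exon sequence, -0.53 for the 841 genes of 1 to 2 kb, -0.2 for 2664 genes of 2 to 4 kb, 0.04 for 2268 genes of 4 to 6 kb and 0.26 for 2911 longer genes. By the length of all annotated exons together, which these groups use, Cst7 (986 bases), Cst3 (1266), Ctss (1358) and Ctsz (1441) are short, and Ctsc (5808), Ctsb (6051) and Ctsl (6489) are long. Ctsh has 4499 bases by that measure. The principal transcripts of Ctsl, Ctsc and Ctsh are shorter, at 1971, 2493 and 1617 bases. When each library's smooth trend on gene length and GC content was removed, the calls of Ctsb (log2 fold change 0.35, adjusted p = 0.00297), Ctss (-0.35, 0.00312), Ctsh (-0.7, 0.0022) and Cst3 (-0.89, 0.000514) remained, and Ctsz was called as higher (0.19, 0.0368). Ctsl stood at -0.28 (0.0563) and Ctsc at 0.22 (0.272) in that fit, so no call turned its direction. The trend was fitted over tested genes of all levels, whose medians were -0.24 at 1 to 2 kb and 0.29 above 6 kb. Among genes with a mean of at least 500 CPM, the level of all the 10 but Cst7, they were -0.64 (29 genes) and 0.13 (62 genes). Whether the fit removes the whole trend at that level was not tested. The fit used the length of all annotated exons, which places Ctsh at 4 to 6 kb, whereas its principal transcript lies at 1 to 2 kb. Whether the call of Ctsh holds by the shorter length was not tested.

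**Figure D3:**
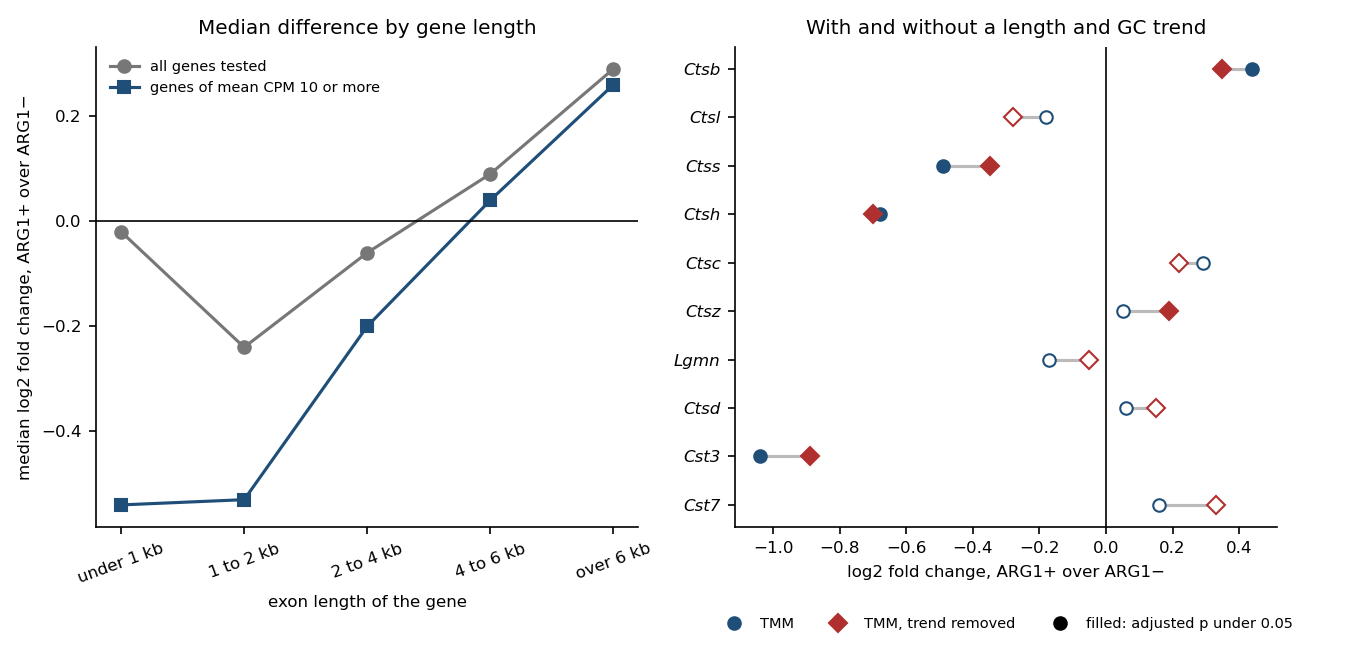
Left, median log2 fold change of ARG1+ over ARG1- microglia for genes grouped by exon length, over all genes tested and over those with a mean of 10 CPM or more, from -0.54 below 1 kb to 0.26 above 6 kb in the latter. Right, log2 fold change of the 10 genes with TMM alone (circles) and after removal of a trend on length and GC (diamonds), filled where the adjusted p is under 0.05.

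Levels of different genes can be set side by side only per length. Per kilobase of the principal transcript, ARG1- microglia held 20331 CPM of Cst3, 7583 of Ctsd, 5084 of Ctss, 2922 of Lgmn, 1294 of Ctsz, 1045 of Ctsl, 1033 of Ctsb, 519 of Ctsh, 269.5 of Ctsc and 11 of Cst7. Neighbors in this order differed beyond their SDs except Ctsl (SD 89.6) and Ctsb (SD 126). In ARG1+ microglia the level per kilobase of Cst3 was 9881 CPM (SD 2130.2) and that of Ctsd was 7892 CPM (SD 848), closer than the sum of their SDs. Ctsb, at 1398 CPM per kilobase, stood next to Ctsz at 1335, and Ctsc, at 330.1, next to Ctsh at 324, again within their SDs. Divided by the length of all annotated exons instead, Ctsd (7140.5) stood above Cst3 (6712) in ARG1+ microglia, so the first place in that population depends on the length used. On that scale Ctsl (317) also stood well below Ctsb (809.8) in ARG1- microglia.

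The balance of protease to inhibitor transcripts within a library follows from these values and needs no scaling between libraries. The ratios are, however, without the adjustment for gene length described above, and Cst3 (1266 exon bases) is short where Ctsb (6051) is long. The part of gene length in them was not tested. The ratio of Ctsb to Cst3 was 0.248 to 0.318 in ARG1- libraries and 0.579 to 1.12 in ARG1+ libraries. That of Ctsc to Cst3 rose from a mean of 0.0383 ± 0.0019 to 0.0998 ± 0.0184 (SD, n = 6). Ctsd is not inhibited by cystatins and was not called, and its ratio to Cst3 went from 0.922 ± 0.0908 to 2.08 ± 0.595. For Ctss, itself lower in ARG1+ microglia, the ratio still rose from 0.396 ± 0.0415 to 0.593 ± 0.094. Ctsh was the one protease whose ratio to Cst3 overlapped between the populations, at 0.0445 to 0.0529 and 0.0519 to 0.0802. In 8 of the other 9 genes every ARG1+ library lay above every ARG1- library. Of all genes tested, whose median level was 12.3 CPM, 36.4% did so when divided by Cst3. No such share was taken among genes as abundant as these. Because Cst3 itself fell without overlap, a ratio to it rises for a well-measured gene that changed little. The separation therefore largely restates the fall of Cst3. Between proteases, the ratio of Ctsb to Ctss rose from 0.579 to 0.95 in ARG1- to 1.02 to 1.6 in ARG1+ libraries.

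**Figure D4:**
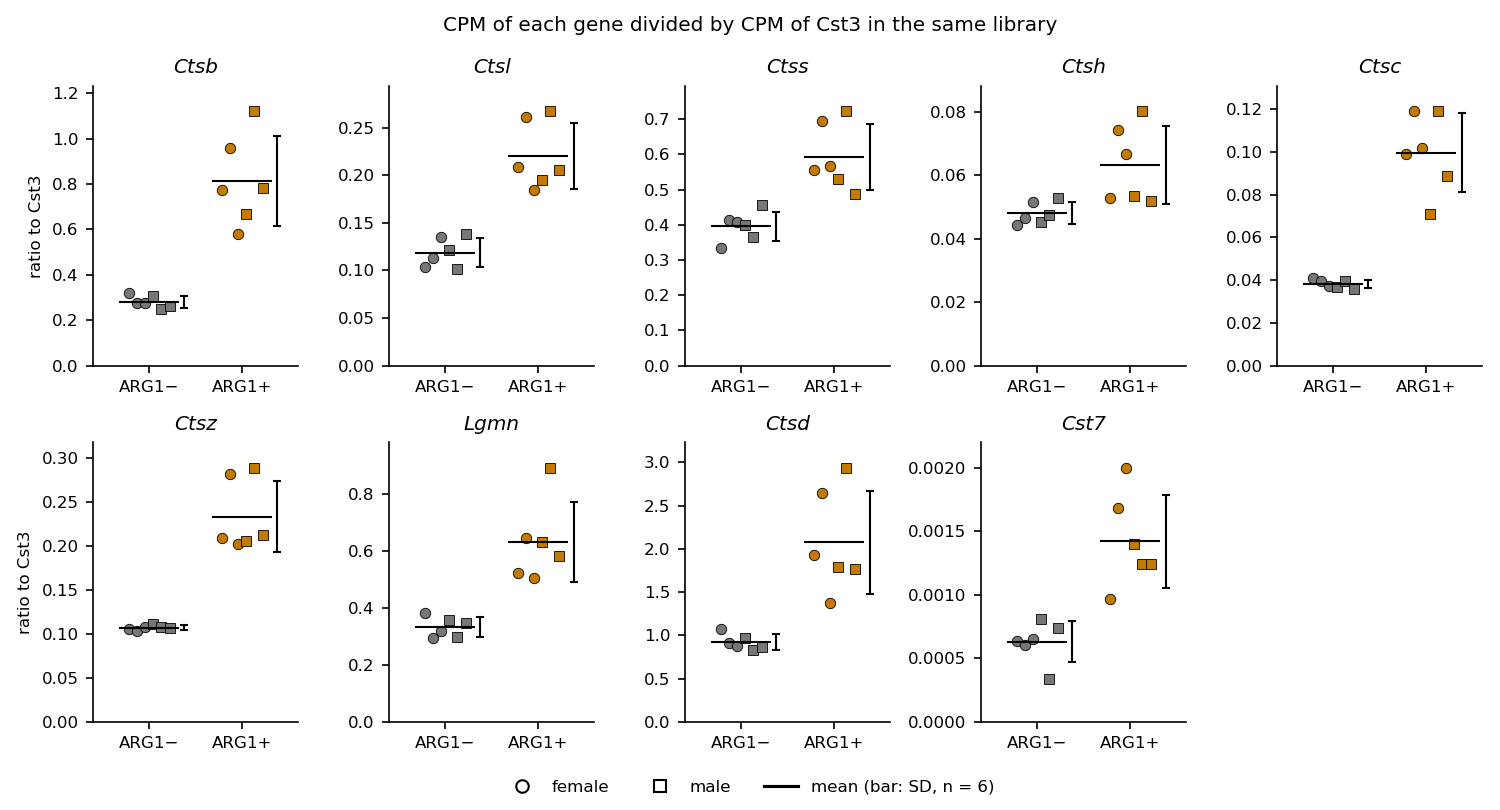
CPM of each of the other 9 genes divided by the CPM of Cst3 in the same library, with the y axes starting at 0; circles are female and squares male libraries, lines are means and bars the SD over 6 libraries. ARG1+ libraries lie above ARG1- libraries for 8 of the 9 genes, with Ctsb going from 0.248 to 0.318 to 0.579 to 1.12, and Ctsh alone overlaps. The ratios are not adjusted for gene length, and all of them contain the fall of Cst3 itself.

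As a share of all counts, the 10 genes made up 5.47% ± 0.199 in ARG1- and 4.87% ± 0.41 in ARG1+ libraries (SD, n = 6), with ranges of 5.2 to 5.73% and 4.54 to 5.66% that overlapped.

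The genes whose profile over the 12 libraries was most like that of Cst3, by the root mean square difference of centered log2 CPM, were Rpl13 (0.096), a ribosomal protein, Krtcap2 (0.111), a subunit of oligosaccharyltransferase, and Gpx1 (0.117), a glutathione peroxidase. Each fell in ARG1+ microglia, by 1.03, 0.93 and 0.92 on the log2 scale. These falls follow from the choice of genes by likeness to Cst3 and are no separate result. None of the other 9 genes came as near: Ctsh, the nearest, differed from Cst3 by 0.27 and Ctsb by 0.79. Ctss and Ctsh were the closest pair among the 10, at 0.14. The genes most like Cst7 were Alg14 (0.268), Ncaph (0.281) and Mettl2 (0.29). None of them was called, which choosing by likeness to an uncalled gene favors.

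The design held both sexes, which allowed the difference between the populations to be compared between them. In females 3 of the 10 genes were called, all lower: Cst3 (log2 fold change -1.12, adjusted p = 0.0103), Ctss (-0.49, 0.0359) and Ctsh (-0.69, 0.0225). In males the same 3 genes were lower, Cst3 (-0.96, adjusted p = 0.0246), Ctss (-0.49, 0.0402) and Ctsh (-0.67, 0.0313), and Ctsb was higher (0.63, 0.0143). Over all genes tested 6.76% were called in females and 5.13% in males. The DESeq2 Wald test called 4 of the 10 in each sex, with Ctsb also higher in females (0.31, adjusted p = 0.0356). With 3 libraries a side these counts hung on single libraries. In females 0 of the 10 were called without ARG1+ female replicate 7 or 8, and 1 without ARG1- female replicate 2 or 13 or ARG1+ male replicate 16. In males 0 were called without ARG1+ male replicate 12 or 16, 1 without ARG1- male replicate 6 or 14, and 2 without ARG1+ female replicate 7 or 8.

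For Ctsb, the female libraries were at 4767, 5117 and 5898 CPM in ARG1- and at 5768, 6442 and 6500.3 CPM in ARG1+ microglia. The male libraries were at 4092, 4661 and 4866 CPM and at 6692, 7073 and 7307 CPM, so the male populations stood further apart. For Lgmn, the female libraries were at 5469, 5569 and 7104 CPM in ARG1- and at 4339, 4405 and 5032 CPM in ARG1+ microglia, with no overlap. The male libraries of Lgmn, at 5415, 5597 and 5735 CPM and at 5349, 5459 and 6700.3 CPM, overlapped.

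The difference between the sexes in the ARG1 effect was itself tested. Of the 10 genes, 0 passed the adjustment in edgeR's interaction contrast, as did 0 of all genes tested (0%), and 0 of the 10 passed in the DESeq2 Wald test, which called 284 of 29036 genes. At an unadjusted p under 0.05, which 9.32% of all genes reached, stood 3 of the 10: Ctsb (a log2 fold change greater by 0.38 in males), Lgmn (0.46) and Ctsd (0.39), whose adjusted p in edgeR's quasi-likelihood test were 0.486, 0.486 and 0.513. The 95% confidence intervals of the interaction for Cst3 (-0.42 to 0.75) and Ctss (-0.37 to 0.37) leave room for differences between the sexes of appreciable size.

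Males were also set against females within each population. Within ARG1- microglia 0 of the 10 genes passed the adjustment, by edgeR or by DESeq2. Of all genes, edgeR called 0.0946% and DESeq2 404 of 29036. At an unadjusted p under 0.05, which 10% of all genes reached in edgeR, only Ctsb of the 10 stood (-0.21, adjusted p = 0.498). Within ARG1+ microglia 0 of the 10 passed by either tool, against 0.0355% of all genes by edgeR and 39 of 29036 by DESeq2. At an unadjusted p under 0.05, which 3.12% reached in edgeR, only Lgmn of the 10 stood (0.35, adjusted p = 1).

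**Figure D5:**
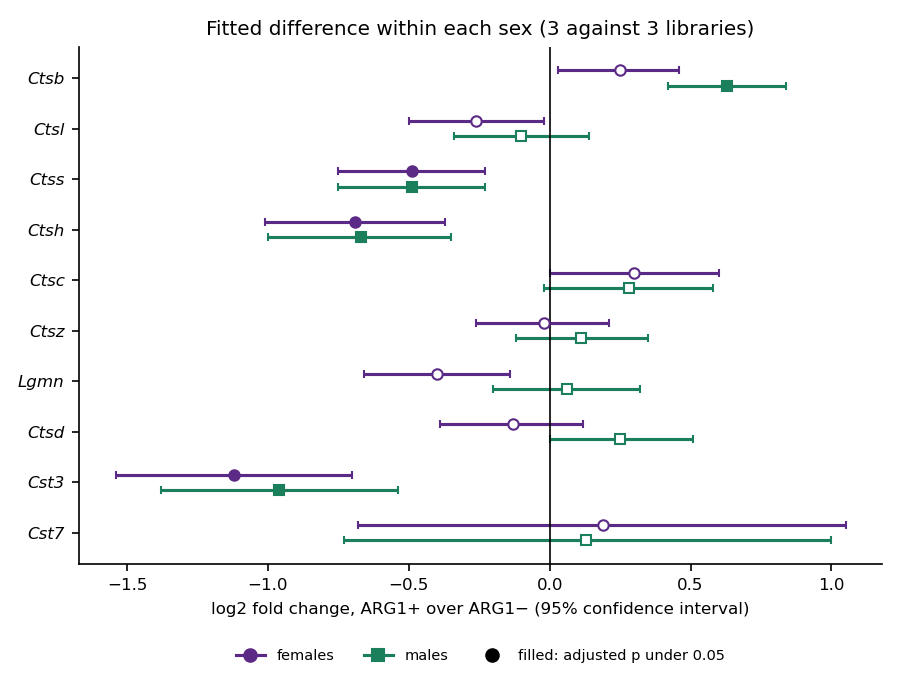
Log2 fold change of ARG1+ over ARG1- microglia with its 95% confidence interval within females (purple circles) and within males (green squares), 3 against 3 libraries each, from 1 fit over 4 groups; filled points have an adjusted p under 0.05. Cst3, Ctss and Ctsh lie close together in both sexes, and Ctsb lies at 0.25 in females and 0.63 in males.

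The wider protease and inhibitor families had few members with enough counts to test. Of 14 other cathepsin genes 5 had enough counts to be tested, and 1 rose and 1 fell. Ctsa (a lysosomal carboxypeptidase that also protects beta-galactosidase and neuraminidase) rose from a mean of 1788 ± 181 to 2211 ± 213 CPM (log2 fold change 0.3, adjusted p = 0.0344). Ctso (cathepsin O) fell from 286 ± 29.3 to 215 ± 17 CPM (-0.41, adjusted p = 0.0101), with no overlap between the populations. Ctsf had means of 865 and 748 CPM (-0.2), Ctsw of 1.1 and 1.06 CPM, and Ctse, an aspartic protease, of 0.699 and 3.26 CPM with an adjusted p of 0.203.

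Of 17 other cystatin genes only Cstb (stefin B, a cytosolic inhibitor) was tested. It ranged from 37.6 to 47.8 CPM in ARG1- and from 19.6 to 38.7 CPM in ARG1+ libraries, and its log2 fold change was -0.53 ± 0.17 (adjusted p = 0.0523).

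Among 6 other lysosomal peptidases tested, Tpp1 (tripeptidyl peptidase, log2 fold change 0.44) and Dpp7 (a dipeptidyl peptidase, 0.67) rose, Ggh (gamma-glutamyl hydrolase, -0.59) fell, and the others, Scpep1 (0.09) and Prcp (-0.11) among them, were not called. Tpp1 went from 659 ± 74.8 to 895 ± 98.3 CPM and Dpp7 from 51.5 ± 8.66 to 81.7 ± 8.8 CPM.

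Of 15 tested genes that sort lysosomal enzymes, 2 rose, 3 fell and 10 were not called. Gga3 (an adaptor for mannose 6-phosphate receptors, 0.86) and Sorl1 (a sorting receptor, 1.23) rose, and Clta (a clathrin light chain, -0.61) and the retromer subunits Vps29 (-0.62) and Vps35 (-0.41) fell. The receptor M6pr itself, at means of 381 and 341 CPM, and the clathrin heavy chain Cltc, at 807 and 1075 CPM, were not called. Of 24 genes of the lysosomal membrane and proton pump, 3 rose, 6 fell and 15 were not called. They include 14 subunits of the V-ATPase, the pump that acidifies the lysosome, of which 6 fell, 2 rose and 6 were not called. Those that fell include Atp6v1f (-0.87), Atp6v0e (-0.73), Atp6v1g1 (-0.68) and Atp6v0d1 (-0.6). The 3 genes that rose were the subunits Atp6v1a (0.46) and Atp6v0d2, at means of 0.29 and 2.73 CPM, and the calcium channel Mcoln1 (0.77). Lamp1 and Lamp2, the main membrane glycoproteins, Laptm5 and Cd68 had log2 fold changes of 0.11, -0.03, -0.06 and -0.19 and were not called. The values of these lists are without the adjustment for gene length described above.

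Of 33 lysosomal hydrolases and their cofactors that are not peptidases, 5 rose and 1 fell. Those that rose include Idua (alpha-L-iduronidase, 0.99), Gaa (acid alpha-glucosidase, 0.92) and Glb1 (beta-galactosidase, 0.46), and Fuca1 (alpha-fucosidase, -0.47) fell. The abundant Grn, Psap and Man2b1 were not called, at 0.22, 0.11 and 0.02. Of the 4 MiT/TFE factors, which bind the CACGTG core shown above, Mitf rose from 3.3 ± 1.8 to 11.8 ± 4.13 CPM (1.86, adjusted p = 0.00998) and Tfe3 from 167 ± 22.7 to 221 ± 28.3 CPM (0.4, adjusted p = 0.0362), while Tfeb and Tfec, at 0.17 and 0.3, were not called. The proteases with CACGTG in the promoter window, Ctsd, Ctsl and Lgmn, had log2 fold changes of 0.06, -0.18 and -0.17. Whether the MiT/TFE factors act on these genes was not tested. Ctsb and Ctsh, for which no window was available, could not be placed with or without it.

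Ctss acts in class II antigen processing, and 7 partner genes of that route were tested. H2-DMa (-0.43, adjusted p = 0.0234) and H2-DMb1 (-0.4, adjusted p = 0.0263), the chains of the peptide-exchange factor, fell. Cd74, the invariant chain cut by Ctss, had means of 151 ± 28.6 and 213 ± 139 CPM (0.42, adjusted p = 0.365). Its medians were 148 and 150.4 CPM, and its highest ARG1+ library stood at 493 CPM. The thiol reductase Ifi30, with means of 82 and 58.4 CPM (-0.5, adjusted p = 0.0764), was not called.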

How the data were processed

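Per the labels, microglial RNA was amplified with SMART-Seq v4, and libraries were made with Nextera XT. The submitters' processing notes name bcl2fastq 2.20.0, STAR 2.6.1d, featureCounts 1.5.1 and DESeq2 1.28.1, with GRCm38/mm10. The deposited table holds raw counts per Ensembl gene, made by the authors for 12 libraries. The annotation release and the strand and overlap settings are not given in the sources used here. GENCODE names of GRCm38 were used, and 260 identifiers, with 0.0333% of counts, matched none.

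Counts were analyzed in edgeR 4.0.16 (R 4.3.3): genes passing filterByExpr, TMM factors, a quasi-likelihood fit on sex and ARG1 status over 12 libraries, and a fit of 4 group means for contrasts between and within sexes. Adjusted p are Benjamini-Hochberg values over 16908 genes, with a threshold of 0.05. Standard errors are the fitted log2 fold change divided by the root of F. Replicates of a group are separate pools in the study's methods. Both populations were sorted from pooled tissue, so an ARG1+ and an ARG1- library may come from the same pool. The p-values measure the spread between libraries taken as unpaired. DESeq2 1.42.0 served for alternatives, and mgcv 1.9.3 for smooth trends on exon length and GC, removed with each library's mean kept. Tests were checked on simulated counts. Promoters are from RefSeq.

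The 10 genes and all lists were chosen with earlier results of these data known. The genes named are the 10, every other tested cathepsin and cystatin, up to 4 of highest mean CPM and up to 4 of smallest p among those called in each other list, and the 3 most like each cystatin. Sorl1, Atp6v1a, Atp6v0d2, Mcoln1, Arg1 and the genes whose exons overlap those of the 10 were named after their values were seen.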

Additional observations from a re-analysis of the deposited data

Results flagged for a closer look

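In each population of 6 libraries, the highest and the lowest library were set against the others for the 10 genes, their summed share and the library total. Of 24 groups examined, 3 held a library whose gap to its nearest neighbor exceeded Dixon's limit, where chance would give about 1.2. Lgmn stood at 7104 CPM in ARG1- female replicate 1, against 5415 to 5735 CPM in the other 5 libraries. Cst7 stood at 6.42 CPM in ARG1- male replicate 6, against 11.2 to 12.9 CPM in the others. The 10 genes together took 5.66% of the counts of ARG1+ male replicate 11, against 4.54 to 4.92% in the other ARG1+ libraries.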

How the results depend on the processing

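The number of genes called was 2682 (1089 higher, 1593 lower) and became 4105 with the DESeq2 Wald test, 247 against a fold of 1.5, 638 in the 8 libraries numbered 1 to 12, 0 in the 4 libraries numbered 13 to 16, 986 in the 6 female and 1 in the 6 male libraries fitted alone. Of the 10 genes, 4 were called in all libraries, 2 in the 8 libraries, 0 in the 4, 1 in the female, 0 in the male libraries and 1 against a fold of 1.5. These subsets have fewer samples. With library totals alone, 1428 genes were higher and 1159 lower, and the median of all genes moved by 0.09. With the DESeq2 Wald test the calls numbered 2631 in females, 2553 in males, 284 for the interaction, and 404 and 39 between the sexes in ARG1- and ARG1+ microglia. Small differences turned their sign: Ctsz -0.01 and Ctsd -0.12 in the female libraries, Lgmn 0.06 in the male libraries, Cst7 0 in the 8 libraries, Ctsz 0.04 in females and the interaction of Ctsh -0.03 with DESeq2. The cause was not tested. Fits without 1 library called 1753 to 2669 genes, the lowest without ARG1+ male replicate 12. They called 91 to 1108 genes and 0 to 3 of the 10 in females (lowest without ARG1+ female replicate 7), 8 to 1187 genes and 0 to 4 of the 10 in males (lowest without ARG1+ male replicate 12), 0 to 10 for the interaction (10 without ARG1- male replicate 5) and 11 to 48 between the sexes in ARG1- microglia (48 without ARG1- male replicate 5). None of the results whose sign turned when 1 library was left out had passed its test. They were Cst7 (-0.02 to 0.29), Ctsz (-0.05 to 0.06) and Cst7 (-0.23 to 0.48) in females, and Ctsl (-0.18 to 0.02), Lgmn (-0.05 to 0.15) and Cst7 (-0.12 to 0.38) in males. They also include the interaction for Ctss (-0.16 to 0.08), Ctsh (-0.13 to 0.19), Ctsc (-0.11 to 0.12), Cst3 (-0.04 to 0.36) and Cst7 (-0.34 to 0.37), and the sex difference in ARG1- microglia for Ctss (-0.13 to 0.03), Lgmn (-0.18 to 0.01) and Cst7 (-0.36 to 0.08). In ARG1+ microglia the sex difference turned for Ctsl (-0.04 to 0.17), Ctss (-0.19 to 0.06), Ctsh (-0.2 to 0.12), Ctsz (-0.04 to 0.15), Cst3 (-0.14 to 0.26) and Cst7 (-0.49 to 0.23). The removal of the trend on length alone was chosen after seeing the data and kept the 4 calls. Cst7 had the lowest counts of the 10 genes, and with libraries thinned to the smallest total it stood at 0.16 (adjusted p = 0.736). No paired analysis was possible because no replicate number is shared between the groups.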

Other observations

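Markers of other cells that the gate could hold, lists whose part in the results was not tested, gave the following. Of 6 tested markers of border macrophages, Stab1 rose in the ARG1+ population (0.82 on the log2 scale, adjusted p = 0.0277), and the gate's own marker Mrc1, which encodes CD206, had means of 121 and 147 CPM and was not called. The summed list ran from 293 to 512 CPM in ARG1- and from 397 to 837 CPM in ARG1+ libraries. Stab1, at means of 239 and 431 CPM, and Mrc1 carried nearly all of it. The median level of the 6 markers tested was 2.53 CPM. Of 4 tested monocyte markers Plac8 was lower and Fn1, at 0 CPM in all ARG1- libraries, was higher, on sums of at most 14.1 CPM. Of 8 astrocyte markers Slc1a3 was lower (-0.43), and Aldoc (means of 9.55 and 3.58 CPM) and Gja1 (4.39 and 2.25 CPM) were not called. None of 6 neuronal, 8 oligodendrocyte or 5 endothelial markers tested was called. Of 9 immediate early genes, Egr1 (1.31) and Atf3 (0.99) were higher. Of the 12 transcripts known for retained introns 6 were higher and 0 lower, Rsrp1 (1.32) and Ccnl2 (1.22) with no overlap between the populations.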
